A study of Mus musculus with 2 samples.

Results

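The genes described here encode the dual-specificity phosphatases (DUSP), the Sprouty and SPRED proteins (SPRY and SPRED), the non-receptor tyrosine phosphatases (PTPN) and the receptor-type tyrosine phosphatases (PTPR). They were taken by symbol: a gene was included when at least 1 probe set of the array was annotated to that symbol alone, and its values are those of its brightest probe set, by the mean of both arrays. This gave 49 genes, measured by 86 probe sets, of 13869 genes in all. They comprised 18 DUSP, 6 SPRY and SPRED, 12 PTPN and 13 PTPR genes. A further 19 protein-coding genes with such symbols in the mouse RefSeq annotation were not analysed here: Dusp5, Dusp6, Dusp8, Dusp13, Dusp14, Dusp18, Ptpn7, Ptpn12, Ptpn14, Ptpn21, Ptpn23, Ptpre, Ptprg, Ptprh, Ptprm, Ptprq, Ptprt, Ptprz1 and Spry2.

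Receptor tyrosine kinases signal through RAS and a chain of kinases to the mitogen-activated protein (MAP) kinases ERK, JNK and p38, which are switched on by phosphorylation of a threonine and a tyrosine in the activation loop. Many dual-specificity phosphatases remove both phosphates, and Sprouty and SPRED proteins act upstream by holding back RAS and RAF, so that genes of both kinds that ERK itself induces close a feedback loop. The PTPN and PTPR enzymes remove phosphate from tyrosine, the first from inside the cell and the second as membrane-spanning proteins with extracellular domains.

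Both cell populations came from the mammary glands of 3 adult virgin female Tbx3+/Venus mice, kept on the FVB strain, aged 5 months and pooled. In these mice the yellow fluorescent protein Venus was inserted at the start codon of Tbx3, so that the fluorescence reports activity of the Tbx3 locus and both populations carried only 1 working Tbx3 allele. Luminal epithelial cells were sorted by CD24 and CD49f after dead, CD45+ and stromal cells had been excluded. The VenusHigh cells had high fluorescence and the VenusLow cells low or no fluorescence. Each population, of 200000 sorted cells, was measured once, on 1 expression array, so no difference here has a replicate check or a p-value.

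The table analysed here holds 12968 probe sets with a higher value in VenusHigh than in VenusLow cells, 16370 with equal values and 0 with a lower one. Every difference (VenusHigh minus VenusLow, log2) is therefore at or above 0 by construction, genes lower in VenusHigh cells are not analysed here, and a gene may be represented by a dimmer probe set. The lowest value on both arrays is 3.32, a signal of 10, which is called the floor below. Among probe sets with a signal of 100 or more on either array, the median was 8.21 in VenusHigh and 7.55 in VenusLow cells, a shift of 0.66. A table with no lower probe sets has a shift in this direction by construction, so an offset between the arrays cannot be told apart from it. Values after median centring, which takes 0.66 from every difference, are given as an alternative scale and carry no direction. Tbx3, the locus whose activity was used for the sort, read 8.72 in VenusHigh and 3.62 in VenusLow cells. The progesterone receptor gene Pgr read 11.93 in VenusHigh and 5.05 in VenusLow cells. All 7 of the 9 listed hormone-sensing luminal markers analysed here were at least 4-fold higher in VenusHigh cells. No marker could be lower in VenusHigh cells by construction, so only the size of these differences is informative. The listed alveolar luminal markers were not analysed here, so the identity of the VenusLow cells was not checked. The luminal keratin gene Krt8 read 13.22 in VenusHigh and 13.13 in VenusLow cells. Of the other pan-luminal markers analysed here, Cdh1 was higher in VenusHigh cells by 0.19 and Krt19 by 0.98. The 5 basal and 10 leukocyte markers analysed here all lay at the floor in both populations. Of 7 fibroblast markers none reached a signal of 100, with a summed signal of 133 in VenusHigh and 92.5 in VenusLow cells.

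Of the 49 phosphatase and feedback inhibitor genes, 19 reached a signal of 100 in at least 1 population, 12 stayed under 100 but above the floor, and 18 were at the floor in both. Only Dusp10 and Ptpn6, 2 of the 19 genes (10.5%), were at least 4-fold higher in VenusHigh cells, against 330 of 3847 (8.58%) among all genes that reached 100. At least a 2-fold higher signal was found for 7 of the 19 (36.8%), the other 5 being Dusp22, Dusp4, Ptpn1, Spry1 and Dusp7, against 831 of 3847 (21.6%) among all genes. The median difference over the 19 genes was 0.33, with a range of 0.03 to 3.48, and over all 3847 genes it was 0.46. The only measure of error within these arrays is the spread between probe sets of 1 gene: the pooled SD of their differences was 0.31 over 1062 genes and 0.18 over the 5 of these 19 genes with more than 1 probe set that reached 100. It does not include the spread between animals or sorts. It also leaves out any probe set of a gene that was lower in VenusHigh cells, so it may be too small. It serves below as a rough scale only. In such bulk samples, fewer cells that express a gene and less of its RNA per cell cannot be told apart.

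**Figure D1:**
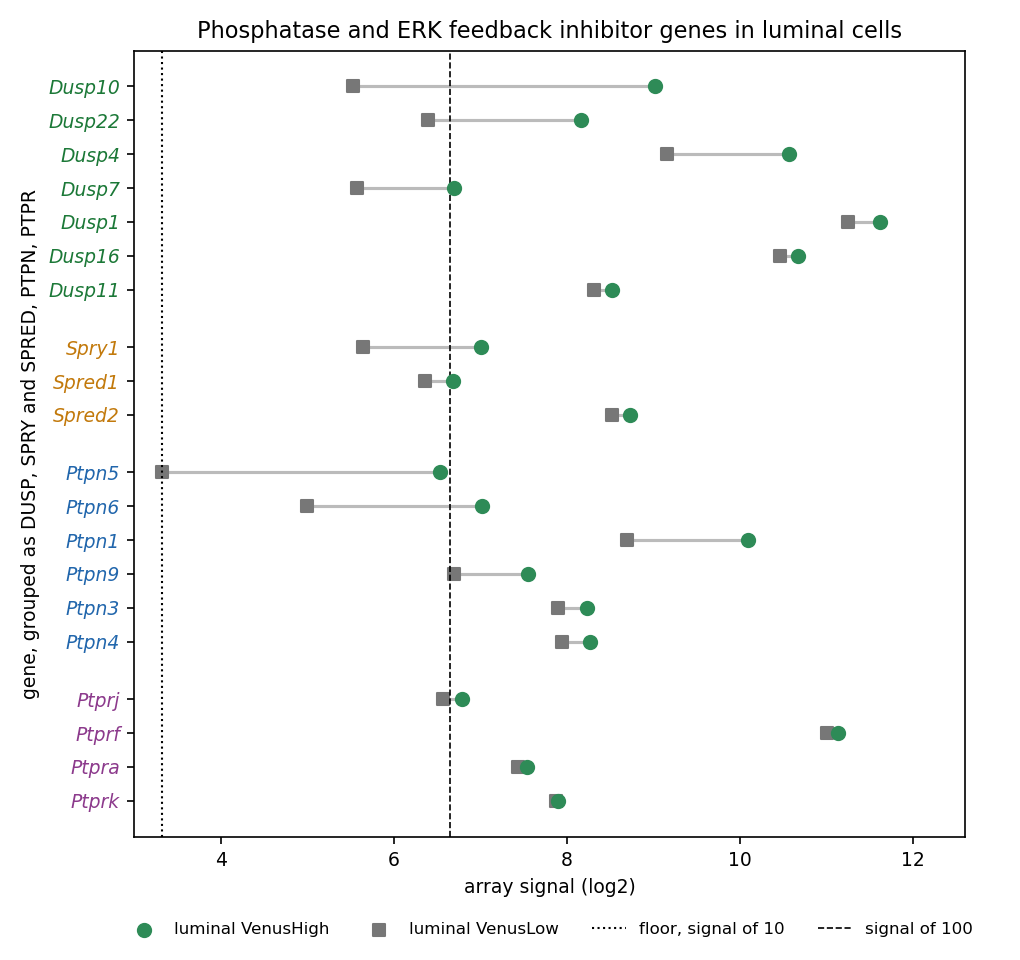
Array signal (log2, horizontal axis) of the 19 genes that reached a signal of 100 and of Ptpn5, grouped by family down the page, with luminal VenusHigh cells as green circles and luminal VenusLow cells as grey squares, 1 array each. The dotted line is the floor and the dashed line a signal of 100. The lines joining the points are longest for Dusp10, Ptpn5 and Ptpn6, and the points nearly coincide for the 4 PTPR genes.

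By family, the median difference was 1.13 over 7 DUSP genes, 0.86 over 5 PTPN genes, 0.33 over 3 SPRY and SPRED genes and 0.12 over 4 PTPR genes. At least a 2-fold higher signal in VenusHigh cells was found for 4 of the 7 DUSP, 2 of the 5 PTPN, 1 of the 3 SPRY and SPRED and 0 of the 4 PTPR genes. Among all genes that reached 100 it was found for 831 of 3847 (21.6%), and each family holds too few genes to be ranked by such counts. The DUSP and PTPN medians lay above the 0.46 of all genes, but not with signals under 100 set to 100, where they were 0.36 for DUSP, 0.37 for PTPN and 0.39 for all genes. The DUSP median also lay below that of all genes with a signal minimum of 50 (0.39 for DUSP, 0.45 for all genes) or with the median over probe sets (0.45 for DUSP, 0.46 for all genes), and the PTPN median with a minimum of 200 (0.33 for PTPN, 0.48 for all genes). The SPRY and SPRED median lay below that of all genes. It was 1.37 with the median over probe sets, where only Spry1 reached 100. Without probe sets that can match several transcripts it was 0.78, from Spry1 and Spred2 only. The PTPR median lay below that of all genes under each of these settings. With the median over probe sets it was the value of Ptprf alone. These medians leave out 6 DUSP, 5 PTPN, 1 SPRY and 7 PTPR genes that were not analysed here and may include genes lower in VenusHigh cells. They describe the analysed members and not a tendency of the family, and with 1 array per population the families could not be tested against each other.

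**Figure D2:**
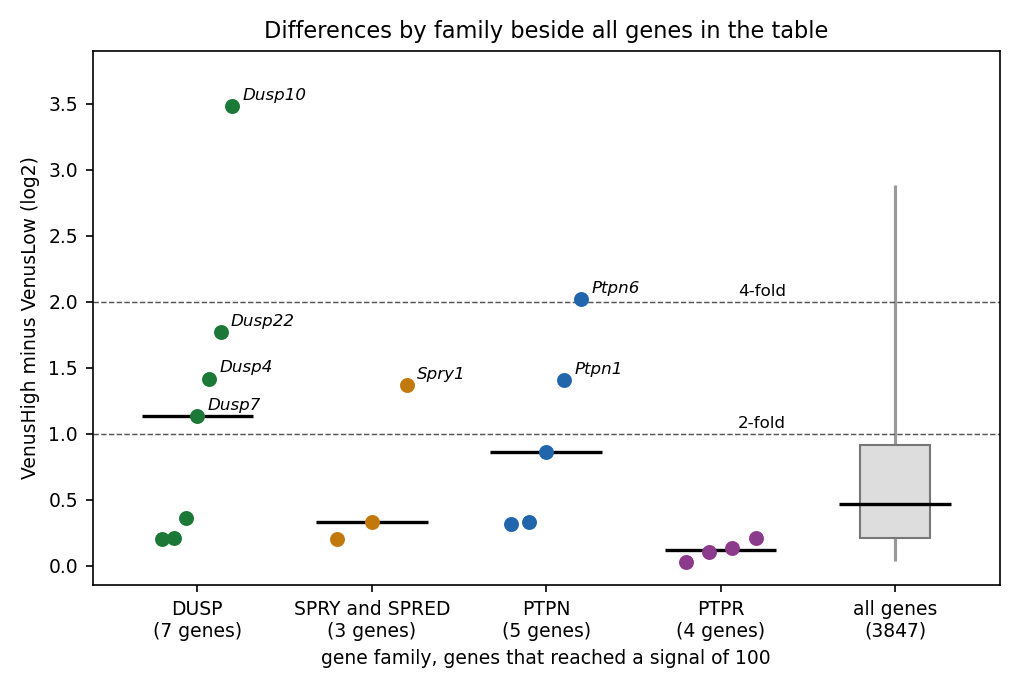
Difference between luminal VenusHigh and VenusLow cells (log2, vertical axis) for each gene that reached a signal of 100, by family, with a black bar at each family's median. The grey box spans the quartiles of all 3847 genes (0.21 to 0.91), its black bar is their median and the line through it spans the 5th to the 95th percentile. Genes at least 2-fold higher are named, and all 4 PTPR genes lie between 0.03 and 0.21, close to or below the lower edge of the box.

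The promoters of some of these genes are shown because the annotation adds a feature that the array does not measure. Promoters rich in CG dinucleotides are typical of widely expressed genes, and CG-poor ones of genes confined to few tissues. RefSeq promoter windows (GRCm38.p6, from 250 bases before to 50 after the annotated start, 300 bases in all) were used for 38 of the 49 genes. They are given 5′ to 3′ on the strand of the gene, with CG dinucleotides in capitals. Dusp10 (chr1:184034131-184034430, plus strand) had the largest difference and Ptpn6 (chr6:124738660-124738959, minus strand) the other 4-fold one. Dusp22 (chr13:30659809-30660108, plus strand) had the most CG dinucleotides of any of these windows. Ptprc (chr1:138175077-138175376, minus strand) was at the floor in both populations, and this window had the fewest. The Dusp22 and Ptprc windows are thus the extremes of CG content and not typical of their groups.
Dusp10: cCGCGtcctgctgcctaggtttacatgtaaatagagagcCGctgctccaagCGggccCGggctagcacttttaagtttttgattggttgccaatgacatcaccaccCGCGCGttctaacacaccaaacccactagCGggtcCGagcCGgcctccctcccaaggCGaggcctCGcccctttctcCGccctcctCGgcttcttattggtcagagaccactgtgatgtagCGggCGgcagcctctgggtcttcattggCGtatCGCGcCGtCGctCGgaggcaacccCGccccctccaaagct
Ptpn6: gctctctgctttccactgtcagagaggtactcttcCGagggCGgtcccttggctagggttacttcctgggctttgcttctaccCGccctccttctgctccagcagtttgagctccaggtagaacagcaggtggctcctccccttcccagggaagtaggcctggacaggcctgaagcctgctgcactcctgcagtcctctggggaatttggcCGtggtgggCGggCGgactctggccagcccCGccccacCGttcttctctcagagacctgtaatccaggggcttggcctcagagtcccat
Dusp22: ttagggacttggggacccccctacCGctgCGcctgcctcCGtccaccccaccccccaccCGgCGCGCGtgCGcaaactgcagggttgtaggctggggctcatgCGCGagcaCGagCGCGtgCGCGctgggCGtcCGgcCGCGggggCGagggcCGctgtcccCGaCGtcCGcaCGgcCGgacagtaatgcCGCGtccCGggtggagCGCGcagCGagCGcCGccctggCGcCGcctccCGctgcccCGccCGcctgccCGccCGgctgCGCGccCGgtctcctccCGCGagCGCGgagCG
Ptprc: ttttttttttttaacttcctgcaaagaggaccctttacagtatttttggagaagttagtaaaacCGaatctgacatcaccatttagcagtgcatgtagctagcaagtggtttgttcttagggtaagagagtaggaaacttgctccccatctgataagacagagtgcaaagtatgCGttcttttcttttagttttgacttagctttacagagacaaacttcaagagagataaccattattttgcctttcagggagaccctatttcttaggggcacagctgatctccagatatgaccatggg

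The windows hold 24 CG dinucleotides for Dusp10, 8 for Ptpn6, 49 for Dusp22 and 2 for Ptprc. Another window of Ptprc, not shown, holds 4. The 19 windows of 18 genes that reached 100 held a median of 31 (6 to 49), and the 18 windows of 11 genes at the floor in both populations held a median of 11 (2 to 40), against a median of 7 over all 32851 windows. The ranges overlap, and both medians lie above that of all windows. Both genes with a 4-fold difference had fewer CG dinucleotides than the median of the genes that reached 100.

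The same windows were searched on both strands for 6 short motifs. The cAMP response element TGACGTCA was found in 4 of 47 windows (8.51%), those of Dusp1, Ptpn11, Ptprs and Ptpru, and in 1.79% of all windows. In Dusp1 it begins at -143, counted from the annotated start. The AP-1 motif TGACTCA and the T-box motif AGGTGTGA were found in 0 of the 47 windows, and in 5.20% and 1.28% of all windows. The motif AGGTCA is the repeat that makes up the estrogen response element. It was found in 4 of the 47 windows (8.51%), those of Dusp16, Dusp28, Ptprn and Ptprs, and in 16.3% of all windows. The forkhead motif TGTTTAC was found in 3 windows (6.38%), of Ptpra and Ptprr, and in 3.65% of all windows. The Ptprr windows with this motif overlap and hold the same site, which is thus counted more than once. The ETS motif CCGGAAGT was found in 1 window (2.13%), of Ptpn1, and in 3.89% of all windows. None of the 6 motifs contains another. Of the 7 genes at least 2-fold higher in VenusHigh cells, Dusp10, Dusp22, Dusp7, Ptpn1, Ptpn6 and Spry1 have a window, and of these only that of Ptpn1 held any of the 6 motifs. A match describes these letters only, and no match says nothing about binding elsewhere.

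Among the DUSP genes, those selective for JNK and p38 included the gene with the largest difference of all 49. Dusp10, which encodes the MAP kinase phosphatase MKP-5, read 9.01 in VenusHigh and 5.53 in VenusLow cells. The difference of 3.48, 11.2-fold, was exceeded by 138 of the 3847 genes that reached 100, and it stayed above 4-fold after median centring (2.82) and with every signal under 100 set to 100 (2.37). It rests on 1 probe set: the second probe set of Dusp10 read 3.44 in VenusHigh cells and the floor in VenusLow cells, a difference of 0.12 close to the floor. Dusp16, which encodes MKP-7 with the same substrates, read 10.67 in VenusHigh and 10.46 in VenusLow cells, a difference of 0.21. A second, dimmer probe set of Dusp16 read 6.85 in VenusHigh and 6.16 in VenusLow cells, a difference of 0.70. The 2 genes of this class thus lay far apart among the DUSP differences.

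Of the nuclear phosphatases that growth factors and stress induce, Dusp4 and Dusp1 were read well above a signal of 100 in each population. Dusp4, which encodes the ERK-induced MKP-2, read 10.57 in VenusHigh and 9.15 in VenusLow cells, a difference of 1.42 (2.67-fold) that was 0.76 after median centring. Dusp1, the immediate-early phosphatase MKP-1, which acts on p38, JNK and ERK, read 11.61 in VenusHigh and 11.25 in VenusLow cells, a difference of 0.36. That of Dusp4 was unaffected by the floor, and that of Dusp1 lay below the 0.46 median of all genes. Dusp2, a nuclear phosphatase known best from lymphocytes, stayed under a signal of 100, at 5.25 in VenusHigh and 4.68 in VenusLow cells.

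Of the cytoplasmic phosphatases selective for ERK, Dusp7 just reached a signal of 100. It read 6.70 in VenusHigh and 5.57 in VenusLow cells, a difference of 1.13 (2.19-fold), which was 0.47 after median centring and 0.05 with signals under 100 set to 100. The other probe sets of Dusp7, both under 100, differed by 1.24 and 0.27, and the one used here is of a type whose probes can also match other sequences. Dusp9 was at the floor in both populations.

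The atypical DUSP genes lack the domain by which the classical members bind MAP kinases. Dusp22, whose product acts in JNK signaling, read 8.16 in VenusHigh and 6.39 in VenusLow cells. Its difference of 1.77 (3.40-fold) was the second largest among the DUSP genes, and was 1.11 after median centring and 1.51 with signals under 100 set to 100, so that it stayed above 2-fold under both. Dusp11, which encodes a phosphatase of RNA rather than protein, read 8.51 in VenusHigh and 8.31 in VenusLow cells, a difference of 0.20. Dusp3, Dusp12, Dusp15, Dusp19 and Dusp28 were above the floor but under 100, with differences of 0.02 to 0.45, and Dusp21, Dusp23, Dusp26 and Dusp27 were at the floor in both populations.

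Among the Sprouty and SPRED genes, Spry1, whose product holds back RAS and ERK downstream of growth factor receptors, was the only one at least 2-fold higher in VenusHigh cells. It read 7.00 in VenusHigh and 5.64 in VenusLow cells, a difference of 1.37 (2.58-fold), which was 0.71 after median centring and 0.36 with signals under 100 set to 100. Spred1, whose product recruits the RAS inactivator neurofibromin to the membrane, read 6.68 in VenusHigh and 6.35 in VenusLow cells, a difference of 0.33. Spred2 read 8.72 in VenusHigh and 8.52 in VenusLow cells, a difference of 0.20, and its other probe sets above the floor differed by 0.24 and 0.19. Both SPRED differences lay below the median of all genes, and the Spred2 probe sets differed from each other by less than the 0.31 SD. Spred3, under a signal of 100, read 4.91 in VenusHigh and 3.39 in VenusLow cells, a difference of 1.52 close to the floor, and Spry3 and Spry4 were at the floor in both populations.

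Among the non-receptor tyrosine phosphatases, Ptpn6 and Ptpn1 were at least 2-fold higher in VenusHigh cells by both of their probe sets. No probe set could be lower by construction, so only the sizes of the differences can be compared. Ptpn6 encodes SHP-1, a phosphatase with SH2 domains that restrains signaling mainly in blood cells and is also made in epithelia. It read 7.01 in VenusHigh and 4.99 in VenusLow cells, a difference of 2.02 (4.06-fold), and its second probe set read 6.66 in VenusHigh and 4.61 in VenusLow cells, a difference of 2.05. The probe sets agree to within the 0.31 SD, but Ptpn6 was only just past 4-fold: the difference was 1.36 after median centring and 0.37 with signals under 100 set to 100. The 10 leukocyte markers analysed here, Ptprc, Laptm5 and Lyz2 among them, were at the floor in both populations, with a summed signal of 100 in VenusHigh and 100 in VenusLow cells.

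Ptpn1, which encodes PTP1B, an enzyme of the endoplasmic reticulum that dephosphorylates the insulin receptor and other receptor kinases, read 10.09 in VenusHigh and 8.69 in VenusLow cells. The difference was 1.41 (2.65-fold), and 0.75 after median centring. Its second probe set read 8.83 in VenusHigh and 7.65 in VenusLow cells, a difference of 1.18. All 4 readings of Ptpn1 were above a signal of 100, so that the floor had no part in them.

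Ptpn5, which encodes the neuronal phosphatase STEP, whose substrates include ERK, was at the floor in VenusLow cells and read 6.53 in VenusHigh cells, under a signal of 100. It was at least 9.26-fold higher in VenusHigh cells relative to the floor of 10, and its difference was 1.53 with signals under 32 set to 32 and 0 with those under 100 set to 100. Its other probe sets were also at the floor in VenusLow cells, and read 4.87 and 3.95 in VenusHigh cells. The neural markers Gfap, Sox10 and S100b were at the floor in both populations, and Ngfr read 3.79 in VenusHigh cells and the floor in VenusLow cells.

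The remaining PTPN genes differed less. Ptpn9, whose product MEG2 sits on secretory vesicles, read 7.55 in VenusHigh and 6.69 in VenusLow cells, a difference of 0.86 (1.81-fold), or 0.20 after median centring. Ptpn3, whose product carries a FERM and a PDZ domain, read 8.23 in VenusHigh and 7.90 in VenusLow cells, a difference of 0.33. Ptpn4, its closest relative, read 8.26 in VenusHigh and 7.94 in VenusLow cells, a difference of 0.31. The related Ptpn3 and Ptpn4 thus differed by nearly the same amount, below the median of all genes. Ptpn11, which encodes SHP-2, a phosphatase that growth factors need to activate RAS and ERK, read 3.64 in VenusHigh cells and the floor in VenusLow cells. Ptpn2 and Ptpn13 stayed under 100 with differences of 0.20 and 0.38, and Ptpn18, Ptpn20 and Ptpn22 were at the floor in both populations.

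**Figure D3:**
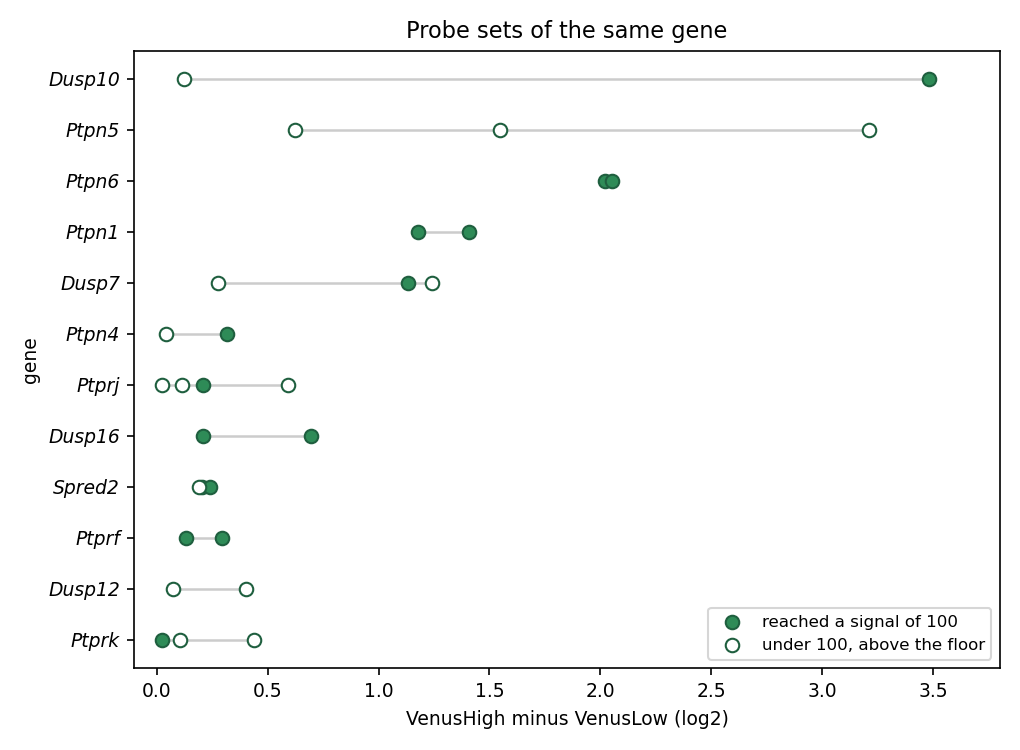
Difference between luminal VenusHigh and VenusLow cells (log2, horizontal axis) for each probe set above the floor, for the 12 genes with more than 1 such probe set. Filled circles mark probe sets that reached a signal of 100 and open circles those under it. The filled circles of Ptpn6 lie at 2.02 and 2.05, whereas Dusp10 has 1 filled circle at 3.48 and 1 open circle at 0.12.

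The receptor-type phosphatases that were read well above the floor had nearly equal values in both populations. Ptprf, which encodes LAR, a receptor of cell contacts, read 11.14 in VenusHigh and 11.00 in VenusLow cells, a difference of 0.13, and its second probe set differed by 0.30. Ptprj, which encodes DEP-1, read 6.78 in VenusHigh and 6.57 in VenusLow cells, a difference of 0.21. Ptpra, whose product activates SRC family kinases, read 7.54 in VenusHigh and 7.44 in VenusLow cells, a difference of 0.10. These differences were smaller than the 0.31 SD between probe sets, as was that of Ptprk, a phosphatase that binds itself across cell contacts, which read 7.89 in VenusHigh and 7.87 in VenusLow cells, a difference of 0.03. PTPR genes lower in VenusHigh cells could not appear beside them. Ptprn2, a phosphatase-like protein of secretory granules, was under 100 at 5.07 in VenusHigh cells and at the floor in VenusLow cells.

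The other 8 PTPR genes analysed here were at the floor in both populations: Ptprb, Ptprc, Ptprd, Ptprn, Ptpro, Ptprr, Ptprs and Ptpru. Ptprc encodes CD45, the surface protein used to exclude leukocytes from the sort, and Ptprb encodes the endothelial phosphatase VE-PTP. Of the 5 endothelial markers analysed here, Cdh5, Tek and Ptprb itself were at the floor in both populations, Kdr read 3.78 in VenusHigh cells and the floor in VenusLow cells, and Eng read 7.13 in VenusHigh and 4.83 in VenusLow cells. Their summed signal was 184 in VenusHigh and 68.5 in VenusLow cells, of which Eng gave 140 and 28.5. The other markers gave only the floor value in VenusLow cells. The part of this signal in the values above was not tested. Both probe sets of Ptprc and all 7 of Ptprd were at the floor.

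**Figure D4:**
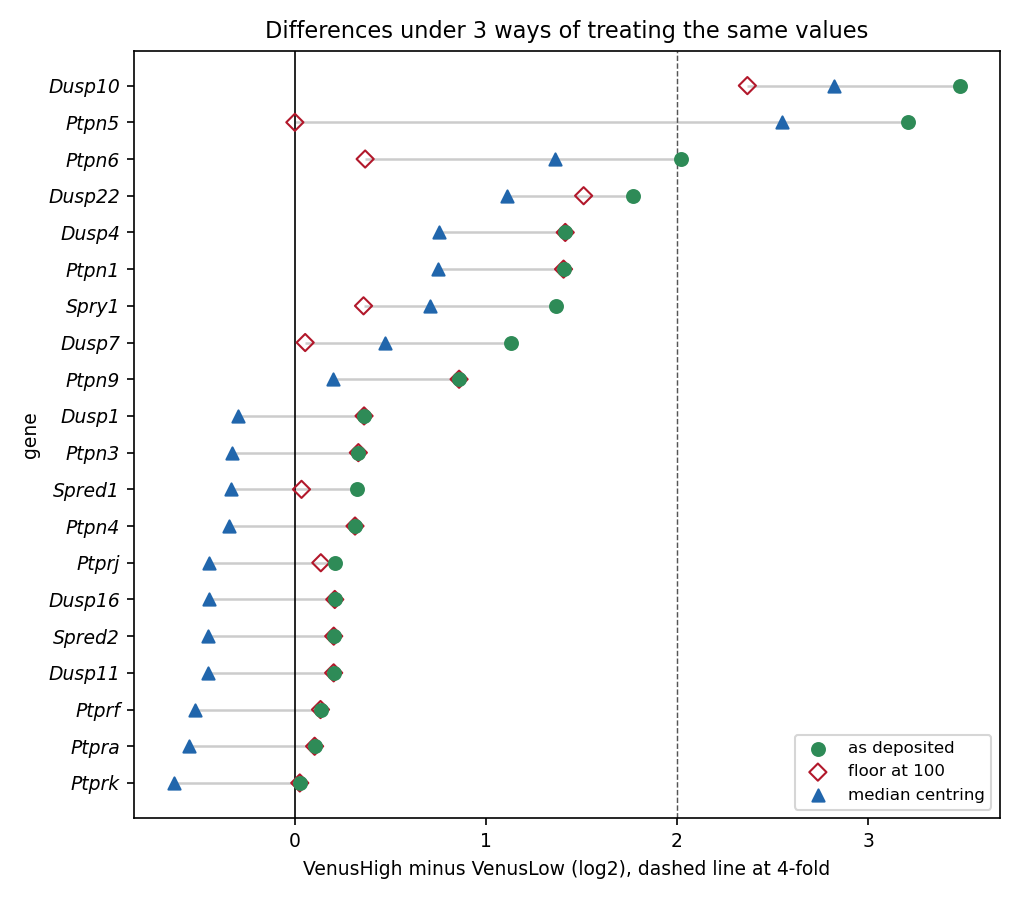
Difference between luminal VenusHigh and VenusLow cells (log2, horizontal axis) for the 19 genes that reached a signal of 100 and Ptpn5, as deposited (green circles), with signals under 100 set to 100 (open red diamonds) and after median centring (blue triangles). Of these, only Dusp10 stayed past the dashed 4-fold line under all 3 treatments, and Ptpn5 lies at 0 with the floor at 100. Median centring moves every gene to the left by the same 0.66.

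The kinases and targets of the same pathways were read beside the phosphatases, for the listed genes analysed here only. Genes lower in VenusHigh cells would be missing from each list, so its counts and median describe the analysed members and not the pathway. Among all 3847 genes that reached 100, 831 (21.6%) were at least 2-fold higher in VenusHigh cells, and the median difference was 0.46. Each list holds few genes that reached 100, and none was tested against that share or median. Of 30 listed genes of the RAS-ERK core, 16 were analysed and 9 of these reached a signal of 100, of which 0 were 2-fold higher in VenusHigh cells, with a median of 0.55. The largest differences were those of the RAF kinase Araf, which read 7.62 in VenusHigh and 6.88 in VenusLow cells, and of the ERK-activating kinases Map2k1, at 8.95 in VenusHigh and 8.22 in VenusLow cells, and Map2k2, at 8.28 in VenusHigh and 7.65 in VenusLow cells. Of 21 listed ERK-induced transcription genes, 7 were analysed and 4 of these reached 100, of which 0 were 2-fold higher, with a median of 0.12. Of these, the immediate-early gene Jun read 13.02 in VenusHigh and 12.83 in VenusLow cells, Ier2 read 11.59 in VenusHigh and 11.45 in VenusLow cells, and Junb read 10.50 in VenusHigh and 10.39 in VenusLow cells. Under a signal of 100, Etv4 read 5.39 in VenusHigh cells and the floor in VenusLow cells, a difference of 2.07 that depends on the floor. Egr3, also under 100, differed by 0.48, and Epha4 was at the floor in both populations.

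Of 17 listed JNK and p38 pathway genes, 11 were analysed and 5 of these reached 100, with a median of 0.90. Mapk12, which encodes the p38 gamma kinase, read 7.73 in VenusHigh and 5.12 in VenusLow cells, a difference of 2.61 (6.12-fold) that was 1.09 with signals under 100 set to 100. It was the only one of the 5 at least 2-fold higher. Mapk9, which encodes the kinase JNK2, read 8.29 in VenusHigh and 7.34 in VenusLow cells, and Mapk14, which encodes p38 alpha, read 8.72 in VenusHigh and 7.81 in VenusLow cells.

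Of 17 listed further regulators of ERK feedback, 12 were analysed and 4 of these reached 100, with a median of 0.43, and only Socs2, a suppressor of cytokine signaling, was 2-fold higher, at 9.37 in VenusHigh and 8.31 in VenusLow cells. The receptor ubiquitin ligase genes Cblc and Cbl differed by 0.65 and 0.21. Of 32 listed protein phosphatase genes of other families, 21 were analysed and 12 of these reached 100, with a median of 0.44. The serine and threonine phosphatase genes Ppp5c and Ppm1l were 2-fold higher: Ppp5c read 7.67 in VenusHigh and 6.52 in VenusLow cells, and Ppm1l read 6.87 in VenusHigh and 5.84 in VenusLow cells. Ssh1, which encodes a cofilin phosphatase, read 7.47 in VenusHigh and 6.69 in VenusLow cells. The medians of both lists lay close to the 0.46 of all genes.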

How the data were processed

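Luminal VenusHigh and VenusLow cells, 1 sample each, were measured on Affymetrix GeneChip mouse expression arrays from 250 ng of total RNA (RNA integrity above 9.4). The table holds deposited log2 signals: the submitters' processing notes name MAS5, and the authors log2-transformed the signals and normalized and centred them per array with BRB Array software. The sources used here do not give the normalization factor, so a common scale of the arrays is unknown. Of 29338 probe sets, the platform annotation pairs 22223 with 1 symbol and 602 with several, and 6513 are not listed. Genes on probe sets with several symbols were not named.

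Differences and medians were computed with Python 3.11.15, numpy 2.4.6 and pandas 2.3.3, and the procedure was tested on simulated data. A gene was counted when its higher signal was at least 100 and its log2 difference at least 2, or at least 1. All genes that reached 100 are named, and of each pathway list the 3 with the largest difference among those that reached 100. The ERK-induced genes under 100 are also named. The genes and lists were chosen with earlier results of these data known. Alternatives were median centring, quantile normalization, floors at 32 and 100, the median over probe sets per gene, probe set type, the signal minimum and the fold.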

Additional observations from a re-analysis of the deposited data

How the results depend on the processing

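The count of genes at least 4-fold higher in VenusHigh cells, 2 as reported, was 1 after median centring, quantile normalization, a floor at 100, a signal minimum of 200 and an 8-fold threshold, where Dusp10 was left. It was also 1, Ptpn6, with the median over probe sets, which leaves 11 genes past 100 and sets Dusp10 at 1.80. With a signal minimum of 50 or none it was 3, with Ptpn5 added. The count at least 2-fold higher, 7 as reported, was 3 after median centring or quantile normalization and 4 with a floor at 100 or a minimum of 200.

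The median difference of the genes, 0.33, was -0.33 after either scaling and 0.86 with the median of probe sets. The DUSP median of 1.13 was 0.47 after median centring, 0.39 after quantile normalization, 0.36 with a floor at 100, 0.45 with the median of probe sets, 0.39 with a minimum of 50 and 0.21 with none. The PTPN median of 0.86 was 0.20 after median centring, 0.16 after quantile normalization, 0.37 with a floor at 100, 0.33 with a minimum of 200 and 0.33 with none. The SPRY and SPRED median of 0.33 was -0.33 after median centring, -0.39 after quantile normalization, 1.37 with the median of probe sets and 0.78 without probe sets that can match several transcripts. The 1.37 is the value of Spry1 alone, and the 0.78 rests on Spry1 and Spred2 only. The PTPR median of 0.12 was -0.54 after median centring and -0.56 after quantile normalization. Over all genes, median centring left 221 of 3847 (5.74%) past 4-fold and 421 (10.9%) past 2-fold, and the median was -0.20. The shift that either scaling removes arises at least in part because the table holds 0 probe sets lower in VenusHigh cells, so the 11 of 20 named genes then below 0 give no direction. No paired analysis was possible because each population has 1 array. Low signals limit Dusp7, Spry1, Spred1, Ptpn5 and Ptpn6, and also the size of the Dusp10 difference, which was 2.37 with a floor at 100.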
